A study of Mus musculus with 6 samples.

Results

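MHC class II presentation genes encode the molecules that show peptides from internalised protein to CD4 T cells. The group described here is 10 genes chosen by symbol, H2-Aa, H2-Ab1, H2-Eb1, Cd74, Ciita, H2-DMa, H2-DMb1, H2-Oa, H2-Ob and Ifi30, with every probe set of the deposited table that names 1 of them alone. Of these 10 genes 9 had such a probe set, out of 13146 genes in all, and together they had 16 of the 28821 probe sets. H2-DMb1 was not analysed here, because no probe set names it alone. Expression was measured on 6 Affymetrix Mouse430_2 arrays in Lin-/Sca1-/cKit+ cells, which lack lineage markers and the antigen Sca1, carry the receptor Kit, and make up the committed myeloid progenitors of normal marrow. The 3 leukemia samples came from the spleens of mice that had been lethally irradiated and given progenitors transduced with AE9a, a truncated AML1-ETO fusion, and the 3 wild-type samples came from wild-type bone marrow. The strain was MF1, the age was 12 to 16 weeks, and 200 ng of total RNA was used per array. The leukemia samples name 1 mouse each while the label of each wild-type sample speaks of several mice, the labels name no selection for transduced cells, and disease and source tissue cannot be told apart. The series title presents the leukemia samples as a population enriched for leukemia-initiating cells.

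In professional antigen-presenting cells an alpha and a beta chain pair in the endoplasmic reticulum with the invariant chain, Cd74, which blocks the groove and guides the complex to endosomes. There the chaperone H2-DM removes the last invariant chain fragment and loads peptide, H2-DO restrains H2-DM, and the reductase encoded by Ifi30 opens disulfide bonds of incoming antigen. Transcription of the chains, of Cd74 and of H2-DM depends on the coactivator Ciita, which binds no DNA itself but docks on RFX, CREB and NF-Y proteins assembled on the neighbouring X and Y boxes of these promoters.

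The promoter stretches that carry an X box core followed by a Y box core are shown first, because these genes are known for that shared layout and include both members that fell and 1 that did not. RefSeq windows of GRCm38.p6, from 250 bases before to 50 bases after a gene's start, were available for 7 of the 10 genes (8 windows). They were searched on both strands for GNAAC, taken here as the X box core, and ATTGG, the Y box core (CCAAT on the other strand), with 20 to 35 bases between them on the same strand. GNAAC and the spacing were chosen after these windows had been read. Of the 7 genes (8 windows), 5 held the pair. Of all 32851 windows 2.67% held it, while ATTGG alone was in 37.4% and GNAAC alone in 84.8%. The pattern was set on these same windows and genes stand beside windows, so no enrichment is read from the shares. The stretches are written 5′ to 3′ on the gene's own strand, with both cores in capitals.
H2-Aa, chr17:34287855-34287916, minus strand: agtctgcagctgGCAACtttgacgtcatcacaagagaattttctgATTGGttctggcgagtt
H2-Eb1, chr17:34305764-34305824, plus strand: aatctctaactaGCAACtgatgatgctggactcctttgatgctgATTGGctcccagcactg
H2-Ob, chr17:34238806-34238864, plus strand: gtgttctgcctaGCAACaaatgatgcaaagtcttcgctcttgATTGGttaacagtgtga
H2-Oa, chr17:34092291-34092352, plus strand: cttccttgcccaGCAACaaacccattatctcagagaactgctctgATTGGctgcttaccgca
H2-DMb1, chr17:34153085-34153146, plus strand: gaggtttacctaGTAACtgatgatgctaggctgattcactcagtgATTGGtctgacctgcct
The gap between the cores was 28 bases in H2-Aa, H2-Oa and H2-DMb1, 27 in H2-Eb1 and 25 in H2-Ob. The Y box core began 43 bases before the start of H2-Oa, 48 before that of H2-Aa, 57 before that of H2-Ob, 59 before that of H2-Eb1 and 61 before that of H2-DMb1. The windows of H2-DMa, which begin at chr17:34122582 and chr17:34125268, and the window of Ifi30 did not hold the pair. Sequence outside the windows was not searched, so it is not known whether H2-DMa or Ifi30 carries the pair elsewhere. A match is a description of the letters and not a site of binding.

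The arrays of the groups stood apart over all probe sets, with Pearson's r of 0.992 to 0.994 within wild-type, 0.969 to 0.978 within leukemia and 0.902 to 0.925 between them. Leukemia replicate 1 was run on the fluidics station together with the 3 wild-type arrays, while leukemia replicates 2 and 3 formed the other run. The 5′ probe set of 18S ribosomal RNA lay at 11.14 to 12.35 log2 in leukemia and at 7.77 to 9.41 in wild-type. The 3′ minus 5′ difference of Gapdh, a sign of RNA integrity, was 0.01 to 0.31 log2 in leukemia and -0.14 to -0.06 in wild-type. The part of both in the results was not tested. Kit, the sort marker, was at 10.35 to 10.42 log2 in wild-type and at 9.34 to 9.80 in leukemia. Cd34, which marks earlier progenitors, was at 10.90 to 11.33 in wild-type and 6.52 to 8.48 in leukemia, and Fcgr3, an Fc receptor of granulocyte and macrophage progenitors, at 8.05 to 8.46 and 7.70 to 10.29. Ly6a, the gene of Sca1, was not analysed here, and the part of the make-up of the sorted cells in the results was not tested. Each change is the leukemia mean minus the wild-type mean of log2 values, with the standard error (SE) of limma, and a gene is said to have fallen or risen where limma's p, adjusted by Benjamini-Hochberg over all 9715 tested genes, was under 0.05.

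Class II chains, the invariant chain, H2-DMa and H2-Ob were bright in wild-type progenitors and much dimmer in the leukemia, while H2-Oa did not pass the test and Ifi30 was higher. Of the 8 members that were bright enough to be tested, 6 fell, 1 rose and 1 did not pass. Over all tested genes 25.2% fell and 16.9% rose, 42.1% in all. With the brightest probe sets the 6 falls were each of at least 8-fold, a size that 3.00% of all tested genes reached. The bound does not hold with 16 added to each value, where H2-Ob and H2-Eb1 changed by -2.78 and -2.90, nor for H2-DMa with the mean of its probe sets (-2.94). The median change of the tested members was -3.75, against -0.09 for all genes. The 6 fallen members passed the filter through their 3 wild-type arrays, so that the count is a description. Over all 16 probe sets, dim ones included, 13 were lower in every leukemia array than in any wild-type array, against 26.7% of the 23750 probe sets with 1 symbol.

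**Figure D1:**
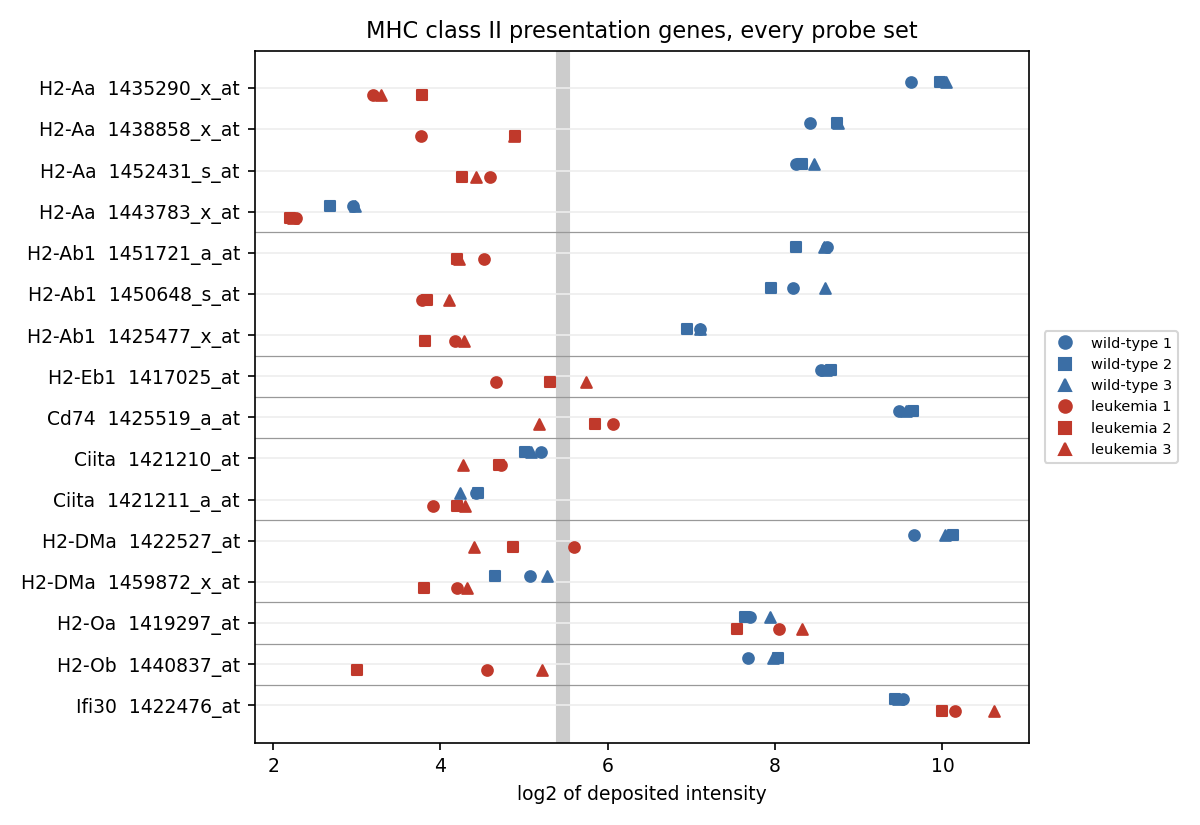
Log2 of the deposited intensity (horizontal axis) for each of the 16 probe sets of the 9 measured genes, with 1 point per array, wild-type in blue and leukemia in red, and marker shapes for replicates 1 to 3. The grey band spans the 6 arrays' 40th percentiles (5.39 to 5.54), and 11 probe sets have every leukemia point below it.

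H2-Aa, the alpha chain of the I-A molecule, gave 9.63, 9.97 and 10.04 log2 in wild-type and 3.19, 3.78 and 3.29 in leukemia with its brightest probe set. These values lay between the 89.0th and 91.7th percentile of all probe sets in wild-type and between the 8.4th and 17.5th in leukemia. H2-Aa fell by 6.46 (SE 0.21, limma adjusted p = 5.64e-06), an 88.1-fold difference and the 16th largest fall of all tested genes. Its leukemia values were all below the 40th percentile, and with 16 added to each value before the log the change was -5.16. The other tested probe sets of H2-Aa changed by -4.12 and -3.92 (SE 0.32 and 0.16, limma adjusted p = 1.17e-04 and 8.79e-06 over 16327 probe sets). The fourth, at 2.68 to 2.98 log2 in wild-type and 2.20 to 2.28 in leukemia, was dim on all 6 arrays and was not tested. The mean over the 4 probe sets changed by -3.78 (limma adjusted p = 8.27e-06), so the size rests on the probe set, while no probe set of H2-Aa had overlapping groups.

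H2-Ab1, the beta chain that pairs with H2-Aa, gave 8.62, 8.25 and 8.59 log2 in wild-type and 4.52, 4.20 and 4.22 in leukemia. It fell by 4.17 (SE 0.18, limma adjusted p = 9.87e-06), or 18-fold. Its 3 probe sets fell by 2.96 to 4.35, all were below the 40th percentile on every leukemia array, and none had overlapping groups. The within-array difference of H2-Aa minus H2-Ab1 was -0.90 in leukemia and 1.39 in wild-type with the brightest probe sets. Both genes lay below the 40th percentile on every leukemia array and the other probe sets of H2-Aa changed by -4.12 and -3.92, against -4.17 and -4.35 for the leading ones of H2-Ab1, so no difference between the chains is read from it.

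H2-Eb1, the beta chain of the I-E molecule, gave 8.55, 8.67 and 8.61 log2 in wild-type and 4.67, 5.31 and 5.74 in leukemia. It fell by 3.37 (SE 0.27, limma adjusted p = 1.25e-04), or 10.3-fold. The leukemia arrays differed from each other by up to about 1 log2 unit, and replicate 3 alone was above the 40th percentile. The single probe set of Cd74, the invariant chain, gave 9.48, 9.65 and 9.57 in wild-type and 6.06, 5.85 and 5.18 in leukemia. Cd74 fell by 3.87 (SE 0.24, limma adjusted p = 4.03e-05), or 14.6-fold. Among the leukemia arrays Cd74 was lowest in replicate 3, where H2-Eb1 was highest.

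Across the tested probe sets of H2-Aa, H2-Ab1, H2-Eb1 and Cd74 no wild-type array overlapped a leukemia array. The order of the leukemia arrays differed between probe sets of 1 gene: H2-Ab1 was highest in replicate 1 with its brightest probe set and in replicate 3 with the others, all below the 40th percentile.

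H2-DMa, the alpha chain of the H2-DM peptide exchange factor, gave 9.66, 10.13 and 10.03 log2 in wild-type and 5.60, 4.87 and 4.40 in leukemia. It fell by 4.99 (SE 0.31, limma adjusted p = 4.37e-05), or 31.7-fold. The further probe set of H2-DMa was dim on all 6 arrays (4.65 to 5.27 in wild-type and 3.80 to 4.32 in leukemia), and with the mean of both the change was -2.94 (limma adjusted p = 6.29e-05). With the run as a block H2-DMa changed by -4.34. H2-DMb2, which encodes a beta chain of H2-DM and is not among the 10 genes, fell by 1.35 (SE 0.17, limma adjusted p = 8.67e-04).

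Of the chains of H2-DO, the inhibitor of H2-DM, the beta chain fell and the alpha chain did not pass. H2-Ob, the beta chain, gave 7.68, 8.03 and 7.97 log2 in wild-type and 4.56, 3.00 and 5.21 in leukemia, and fell by 3.63 (SE 0.52, limma adjusted p = 0.00178), or 12.4-fold. Its leukemia values were the most spread of the members (SD 1.14), and replicate 2 was far below the others. Its leukemia values were all below the 40th percentile, and the change was -3.0 without leukemia replicate 2 and -2.78 with 16 added, so the fold is not exact. H2-Oa, the alpha chain, gave 7.70, 7.64 and 7.94 in wild-type and 8.05, 7.54 and 8.32 in leukemia, and its groups overlapped. The change of H2-Oa was 0.21 (SE 0.22, 95% confidence interval -0.31 to 0.73, limma adjusted p = 0.465). The within-array difference of H2-Ob minus H2-Oa moved from 0.13 ± 0.22 to -3.71 ± 0.74 (SD, n = 3 each), a change of -3.85 with an exact permutation p = 0.1, two-sided, the smallest that 3 against 3 allows (adjusted p = 0.1 over the 2 pairs of chains compared).

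Ifi30, the lysosomal thiol reductase, gave 9.53, 9.43 and 9.47 log2 in wild-type and 10.15, 10 and 10.62 in leukemia. It rose by 0.78 (SE 0.16, 95% confidence interval 0.39 to 1.16, limma adjusted p = 0.00860), or 1.71-fold, and was higher in 3 of 3 leukemia arrays than in any wild-type array. Ciita, the coactivator, was too dim to be tested. Its brighter probe set gave 5.20, 5.01 and 5.08 in wild-type and 4.72, 4.70 and 4.27 in leukemia, below the 40th percentile on all 6 arrays, a difference of -0.53 (exact permutation p = 0.1, two-sided). Its other probe set differed by -0.24, with overlapping groups (exact permutation p = 0.2, two-sided). Without the filter on dim genes the brighter probe set of Ciita passed (limma adjusted p = 0.0468).

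Over all probe sets tested as separate rows, 10 of the 12 tested member probe sets fell and 1 rose, against 21.4% and 17.7% of 16327 probe sets. Those of H2-Aa and H2-Ab1 and that of Cd74 have names ending in _x_at, _s_at or _a_at, which mark probes that can be shared by related transcripts or transcript variants. Among the members tested with plain probe sets, H2-DMa, H2-Eb1 and H2-Ob fell, Ifi30 rose and H2-Oa did not pass.

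The members whose names begin with H2 lie in the MHC region of chromosome 17, with other genes between them. The genes there were followed in RefSeq gene order. Of the 11 protein-coding genes from H2-DMa to H2-Eb1, 10 were tested and all 10 fell, with changes from -6.46 to -0.85. Over all tested genes 25.2% fell. H2-DMa, H2-Ob, H2-Ab1, H2-Aa and H2-Eb1 are members already counted above, so the count is not separate from theirs. The class I pathway genes that lie between the class II genes were also among the 10. Psmb9 and Psmb8, which encode immunoproteasome subunits, changed by -0.85 and -1.17, and Tap1 and Tap2, which encode the peptide transporter, changed by -1.03 and -1.42. Of the 8 genes from H2-K1 to Brd2, on the other side of H2-DMa, 7 were tested, 4 fell and 3 did not pass. H2-Oa is one of those 3, and its neighbour Brd2, a chromatin reader, fell by 0.67 (SE 0.14, limma adjusted p = 0.00921).

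**Figure D2:**
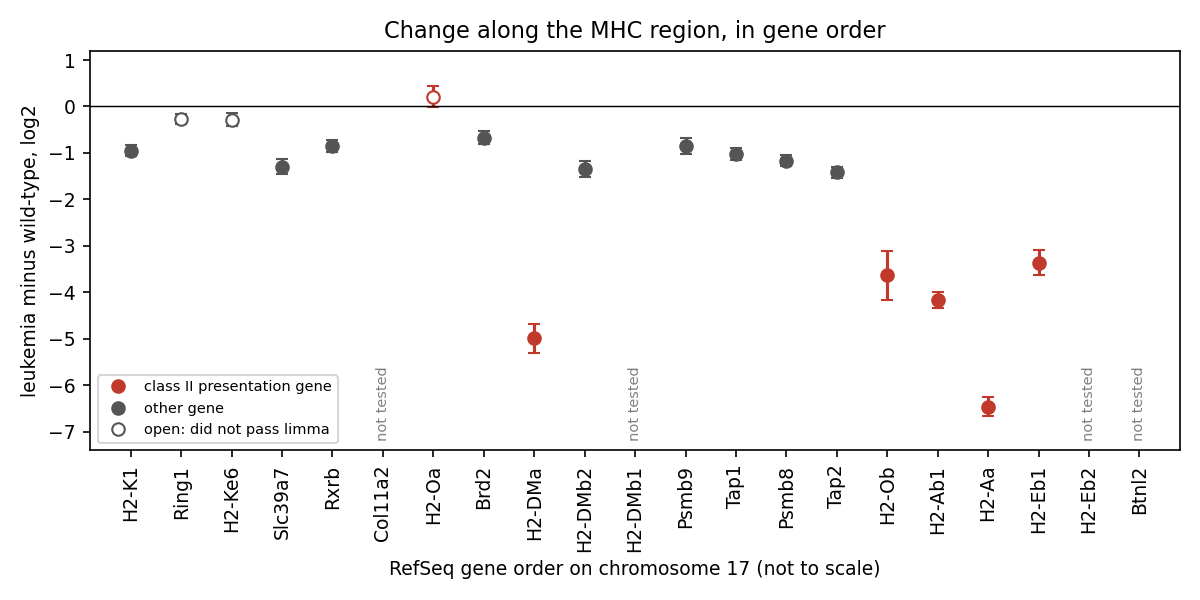
Change from wild-type to leukemia on the log2 scale (vertical axis, bars show ± SE, 3 arrays per group) for protein-coding genes of the MHC region in RefSeq order from H2-K1 to Btnl2, with class II presentation genes in red and open circles for genes that did not pass limma. The 5 red points from -3.37 to -6.46 are the lowest in the plot, the genes between H2-DMa and H2-Ob lie from -1.42 to -0.85, and H2-Oa lies at 0.21.

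Among the 12 factors listed for class II promoters, 10 were tested, with a median change of -0.51. Of these 10, 6 fell and 1 rose, against 25.2% and 16.9% of all tested genes. Irf8, a myeloid and dendritic cell regulator, gave 10.34, 10.97 and 10.97 log2 in wild-type and 3.71, 4.17 and 3.78 in leukemia (change -6.87, limma adjusted p = 5.64e-06). The leukemia values of Irf8 were all below the 40th percentile, so the size of its fall is not exact. Irf1, which mediates interferon induction of Ciita, fell by 1.95 (limma adjusted p = 1.18e-04). Irf8 and Irf1 kept their calls without any 1 of the 6 arrays, whereas the count of fallen factors was 2 without wild-type replicate 2 or 3, 3 without leukemia replicate 2, and 4 when the fluidics run was a block.

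Of the RFX subunits, which bind the X box, Rfx5 gave 8.81, 8.97 and 8.83 log2 in wild-type and 7.50, 8.13 and 8.48 in leukemia. Rfx5 fell by 0.83 (limma adjusted p = 0.0303) and did not pass when wild-type replicate 1, 2 or 3 was left out (adjusted p = 0.0783, 0.101 and 0.0865, limma) or leukemia replicate 2 (0.0515). Rfxap rose by 0.54 (limma adjusted p = 0.0428) and did not pass when wild-type replicate 1, 2 or 3 was left out (adjusted p = 0.0768, 0.138 and 0.0900, limma), without leukemia replicate 1 or 3 (0.0603 and 0.0537) and without the filter on dim genes (0.0502). Rfxank did not pass (change 0.42, limma adjusted p = 0.275), but did without leukemia replicate 1 (0.73, adjusted p = 0.0172, limma). The change of Rfxank was -0.20 with the run as a block, and with its plain probe set it was -0.21.

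Of the NF-Y subunits, which bind the Y box, Nfya fell by 1.25 (limma adjusted p = 0.0257) and did not pass when wild-type replicate 2 or 3 was left out (adjusted p = 0.0836 and 0.0942, limma) and with the mean of its probe sets (-0.41, 0.337). Nfyb and Nfyc did not pass (changes 0.04 and 0.12, limma adjusted p = 0.868 and 0.339). Creb1, which binds within the X box, fell by 0.38 with its brightest probe set (limma adjusted p = 0.0297) and gave 0.21 when its probe sets were averaged (adjusted p = 0.296, limma), so the direction rests on which probe sets are taken. It also missed the threshold without wild-type replicate 2 or 3 (adjusted p = 0.104 and 0.110, limma) or leukemia replicate 2 (0.0733), with the run as a block (0.0724) and with the replicate block (0.0622). Spi1, the myeloid regulator PU.1, fell by 0.64 (limma adjusted p = 0.0324) and did not pass when wild-type replicate 2 or 3 was left out (adjusted p = 0.110 and 0.104, limma) or leukemia replicate 2 or 3 (0.0522 and 0.0780). With the run as a block Spi1 changed by -0.47 (adjusted p = 0.156, limma), and with the replicate block its adjusted p was 0.0543.

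Genes of antigen processing and class II turnover moved in both directions. Of the 11 tested, 7 fell and 2 rose, against 25.2% and 16.9% of all tested genes. The median of the 11 was -0.57 (0.32 over the 7 with plain probe sets). Ctss, the cathepsin that trims the invariant chain in dendritic cells and B cells, fell by 3.27 (limma adjusted p = 9.28e-05), and Ctsl, which does so in thymic epithelium, fell by 1.48 (0.00260). Ctsh, another cysteine protease, fell by 4.72, and the tetraspanin Cd9 fell by 4.90. Ctss, Ctsh and Cd9 lay below the 40th percentile on every leukemia array. They passed the filter through their wild-type arrays, and the sizes of their falls are not exact. Ctsb rose by 0.45, and the ubiquitin ligase gene Marchf8 rose by 0.91 (limma adjusted p = 0.0172), but did not pass with the run as a block (0.68, adjusted p = 0.0969, limma).

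The genes of the class I pathway, which shows peptides of the cell's own proteins to CD8 T cells, were mostly lower. Of 20 tested, 14 fell and 1 rose, against 25.2% and 16.9% of all tested genes. The median of the 20 was -0.69. The count of falls was 8 of 14 with plain probe sets. Nlrc5, the coactivator of class I genes and the counterpart of Ciita, gave 7.63, 7.37 and 7.35 log2 in wild-type and 3.32, 4.20 and 4.26 in leukemia. Nlrc5 fell by 3.52 (SE 0.28, limma adjusted p = 1.14e-04). Cd1d1, a class I-like molecule that presents lipids, fell by 4.39. Nlrc5 and Cd1d1 lay below the 40th percentile on every leukemia array, so the sizes of their falls are not exact. The class I heavy chain genes H2-K1 and H2-D1 fell by 0.95 and 0.70 and B2m, their light chain, fell by 0.77, with H2-K1 still at 11.84 to 12.26 log2 in leukemia. Mr1, which presents vitamin metabolites, rose by 1.36 (limma adjusted p = 0.00173).

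**Figure D3:**
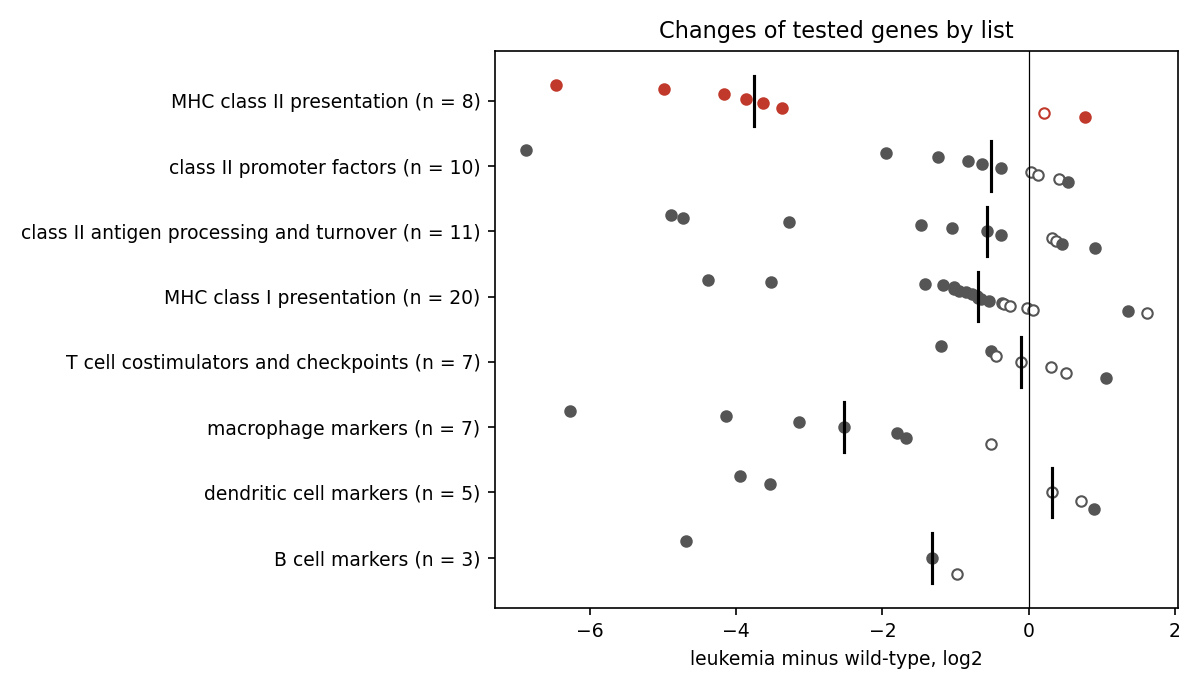
Change on the log2 scale (horizontal axis) of every tested gene in 8 lists, with filled points for genes that passed limma, open points for those that did not, and a black bar at each list's median. The class II presentation genes have a median of -3.75, against -0.69 for class I presentation and -0.51 for the promoter factors, with 6 filled points from -6.46 to -3.37.

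Cd74 at the cell surface also forms a receptor for the cytokine encoded by Mif, together with Cd44 and chemokine receptors. The 3 tested genes, Mif, Cxcr4 and Cd44, fell, against 25.2% of all tested genes. Mif gave 12.54, 12.58 and 12.53 log2 in wild-type and 11.13, 11 and 10 in leukemia and fell by 1.84 (limma adjusted p = 0.00214). Cxcr4 fell by 5.34 (limma adjusted p = 5.18e-05), to below the 40th percentile on every leukemia array. Cd44 fell by 0.64, a call lost with the mean of its probe sets (-0.20, limma adjusted p = 0.278). Of 7 tested T cell costimulators and checkpoints 2 fell and 1 rose, near the 25.2% and 16.9% of all tested genes. The median of the 7 was -0.10. Vsir, an inhibitory ligand, fell by 1.19, Cd274, which encodes PD-L1, rose by 1.06, and Pvr fell by 0.52, a call lost without any 1 of 5 of the arrays (limma adjusted p from 0.0511 to 0.150) and with the run as a block (0.168). Cd80 and Cd86, which encode the B7 costimulators, were below the 40th percentile on all 6 arrays.

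Markers of other cell types that the sorted samples could hold were followed beside these genes, and the lists differed. Of the 13 macrophage markers with a probe set (16 listed), summed intensity ran from 2236 to 3117 in wild-type and from 242.9 to 276.6 in leukemia. Csf1r made up the largest part of the wild-type sum. Of the 7 tested, 6 fell, led by Csf1r (fell by 6.27), Slc40a1 (fell by 4.14) and Cd68 (fell by 3.14). Over all tested genes 25.2% fell. Csf1r, Cd68, C1qa, C1qb and Cd163 lay below the 40th percentile on every leukemia array. They passed the filter through their wild-type arrays, so the count is a description. Adgre1, Fcgr1 and Mertk, which define mature macrophages, were below the 40th percentile on all 6 arrays. Of 12 B cell markers with a probe set (17 listed) the sum ran from 1948 to 2802 in wild-type and from 705.9 to 825.8 in leukemia. Cd37 and Ighm made up most of the wild-type sum. Ighm fell by 4.69, to below the 40th percentile on every leukemia array, and Cd37 fell by 1.32. Cd79b gave 7.40, 7.85 and 7.72 log2 in wild-type and 6.62, 7.77 and 5.63 in leukemia. It did not pass (change -0.98, limma adjusted p = 0.15). Cd22, which was not tested, was at 5.51 to 6.36 in wild-type and 4.89 to 5.12 in leukemia. Ms4a1 and Ebf1, which define B cells, lay below the 40th percentile on all 6 arrays, as did Bank1, Cr2, Fcer2a, Fcrla and Pou2af1. Of 11 dendritic cell markers with a probe set (17 listed) the sum ran from 1835 to 2326 in wild-type and from 1290 to 2022 in leukemia. The upper leukemia value came from replicate 2, where Ly6d was at 9.76 log2, against 4.25 and 4.23 in the other leukemia arrays. The 5 tested had a median change of 0.32. Of those that missed the filter, Zbtb46 and Ccr9 were higher in every leukemia array than in any wild-type array. Itgax, Batf3 and Cd209a were lower in every leukemia array than in any wild-type array. Flt3 and Tcf4 fell by 3.95 and 3.54, the latter not passing without wild-type replicate 2 (limma adjusted p = 0.0515), and Clec10a rose by 0.90, a call lost without any 1 of 4 arrays. Of 6 T and NK cell markers with a probe set (14 listed) the sum ran from 2245 to 2843 in wild-type and from 248.3 to 284.7 in leukemia. Nkg7 alone, at 11.06 to 11.42 log2 in wild-type, made up most of that sum. Nkg7 fell by 3.64, with Cd2, Cd5, Cd8a and Gzma below the 40th percentile on all 6 arrays. In bulk samples fewer cells of a type and less RNA per cell cannot be told apart, and the part of such cells in the class II values was not tested.

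The genes outside these lists whose pattern over the 6 arrays was most like that of H2-Aa were Ly86, Lyz1 and F13a1. Their gene-centred log2 values lay at a root mean square distance of 0.18, 0.23 and 0.24 from those of H2-Aa, and they were lower in leukemia by changes of -6.50, -6.74 and -6.31. Lyz1 has a near-identical copy and its probe set may not separate them. For Cd74 the most alike were Bex6, Ffar2 and Atp10a, at distances of 0.16, 0.17 and 0.18 and with changes of -3.98, -3.96 and -4.07. These distances are descriptions over 6 arrays that fall into the same 2 groups.

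**Figure D4:**
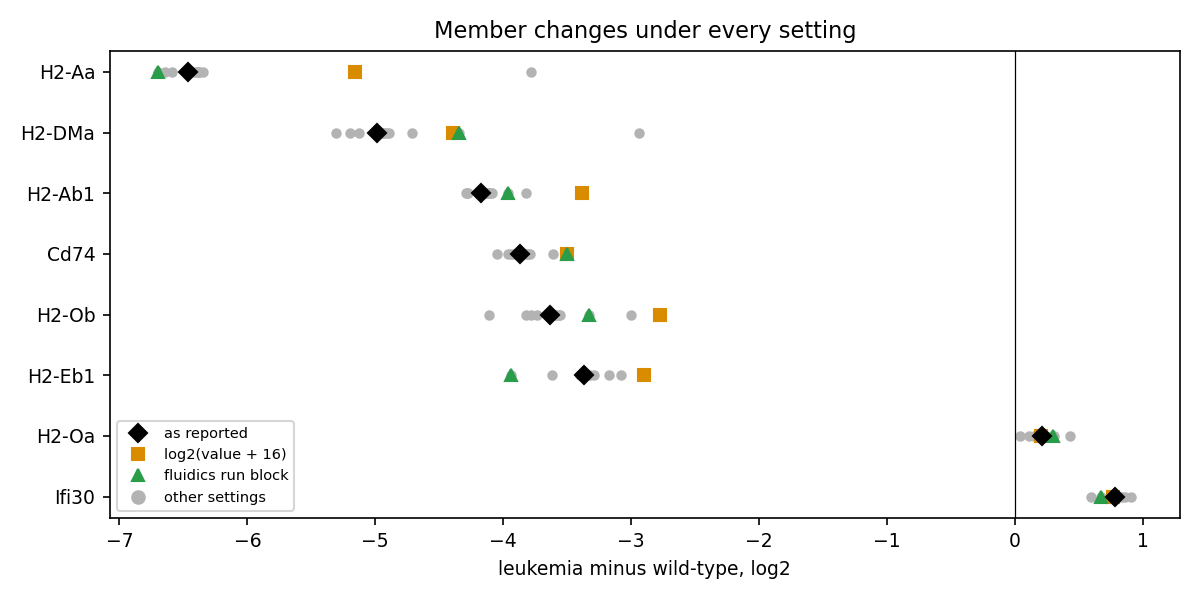
Change on the log2 scale (horizontal axis) of the 8 tested members as reported (black diamonds), with 16 added before the log (orange squares), with the fluidics run as a block (green triangles) and under the other settings (grey points). H2-Aa ranges from -6.69 to -3.78 and H2-DMa from -5.31 to -2.94, in both cases with the mean of the probe sets as the smallest fall, and no point of the 6 fallen members lies above -2.78.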

How the data were processed

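The deposited values are intensities that the authors made with RMA, per the submitters' processing notes; its version and steps are not given in the sources used here. The table was linear (3.31 to 18869), not log2 as the design had allowed for, so log2 was taken with no pseudocount. Median intensity per array was 71.6 to 79.9. The deposited array run records, an other kind of file, gave the fluidics runs. Of 28821 probe sets 23750 had 1 gene symbol in the platform annotation, 677 several, 4355 none and 39 were controls, and only the first were named. For each gene the probe set with the highest mean was used. A gene was tested (9715 were) if on at least 3 arrays it reached the 40th percentile of all probe sets, while 3431 were left out as dim, Ciita among them.

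Groups came from the sample titles. The groups were contrasted in limma 3.58.1 (R 4.3.3) by a two-sided moderated fit without covariates, with 4 residual degrees of freedom and a variance trend. The labels do not say that wild-type samples came from separate animals, so p-values describe the spread of these samples alone. A second fit used all probe sets. Exact permutation tests served for single values. Simulated data of 9715 genes, drawn for the comparison of leukemia with wild-type, gave back 4% of genes with a log2 change of 0.5, 72% of those with 1 and 86% of those with 2, with 6 false calls. In the simulation few genes were changed and both groups shared the same spread, so these shares need not hold for the data. The genes, lists, tests and alternatives were chosen with earlier results of these data known. Named genes were all members and promoter factors, and up to 4 per direction of every other list that passed without overlap. No list was tested as a set. Alternatives covered the filter, the probe set rule, scaling, an offset of 16, variance moderation, array weights, blocks and leaving out each array. Figures were drawn with matplotlib 3.10.9.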

Additional observations from a re-analysis of the deposited data

How the results depend on the processing

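The 8 tested members kept their direction and their side of the threshold under every alternative in which they could be fitted, 17 or 18 each, with the largest limma adjusted p of a called member at 0.0453 (Ifi30, fluidics run as a block). The count of fallen members was 3 of 5 with plain probe sets, where H2-Aa, H2-Ab1 and Cd74 have none, and their median change was then -3.37, against -3.50 with the mean of probe sets and -3.14 with 16 added. Leaving out each array gave medians from -3.92 to -3.67. Over all genes the counts of changed and of fallen genes were 2647 to 4716 and 1513 to 2778 with an array left out, lowest without wild-type replicate 3. Among the promoter factors, 2 to 6 fell and 0 to 1 rose with an array left out, and 0 rose without the filter or with array weights. Among class I genes 8 fell with plain probe sets, 0 rose with them or the stricter filter, 2 rose with array weights, and 1 to 2 rose with an array left out. Medians turned sign for the processing list with plain probe sets (0.32), the costimulators with the mean of probe sets (0.10) and without leukemia replicate 1 (from -0.32 to 0.10 with an array left out), and the dendritic cell markers with the stricter filter (-3.54, 3 tested), and Creb1 turned with the mean of probe sets (0.21). The cause was not tested. Replicate numbers did not pair the arrays (correlations of same-numbered deviations -0.07, 0.05 and 0.03), and with the replicate block 6 members fell and 1 rose. The block by run rests on leukemia replicate 1 alone. The number of arrays, and signal near background in leukemia, limit the sizes of the falls.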
